A study of Mus musculus with 17 samples.

Results

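The MHC class II genes are a group of 7 genes: H2-Aa, H2-Ab1, H2-Eb1, H2-DMa, H2-DMb1, Cd74 and Ciita. They were chosen by symbol from the 27240 symbols of a count table of bulk RNA sequencing from sorted CD8 T cells of mouse lung tumours. Donor mice were either WT or lacked PD-L1 in the endothelium (PDL1DEC mice, genotype KO in the labels). PD-L1 binds PD-1, an inhibitory receptor of T cells. Core-enriched cells came from macroscopic nodules and rim-enriched cells from parenchymal nodules. This gave 5 WT core libraries (F164, H719, H873, H876 and a pool), 6 KO core libraries (F219, F318, F319, F322, F86 and O), 2 WT rim libraries (H874 and H877) and 4 KO rim libraries (F15, F322, F86 and O). Sex was read from the counts of sex-linked genes. It was male in both F322 and both O libraries, mixed in the pool and female in the other 12 libraries. Sex was thus not balanced between the genotypes. The sources used here do not give the strain, age, tumour model or Cre driver, the purity of the sort, or the number of animals in the pool.

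MHC class II molecules are pairs of an alpha and a beta chain that show peptides from endosomes to CD4 T cells. The invariant chain, encoded by Cd74, escorts new pairs and blocks their groove, and H2-DM then exchanges the last fragment of the invariant chain for peptides. Ciita encodes the transactivator that is recruited to class II promoters by factors bound there. B cells, dendritic cells and macrophages carry class II constitutively or after induction, whereas mouse T cells are known for carrying little or none of it, so these transcripts are not among the defining genes of the labelled cell type.

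The group shares more than its function. In GENCODE M21 (GRCm38), 5 members lie in the MHC on chromosome 17: H2-DMa at 34119541 to 34139101, H2-DMb1 at 34153072 to 34160230, H2-Ab1 at 34257689 to 34269419, H2-Aa at 34282744 to 34287823 on the minus strand, and H2-Eb1 at 34305867 to 34316674. Cd74 and Ciita lie on other chromosomes. The RefSeq promoter table (GRCm38.p6) held entries for 4 of the 7 members, and H2-Ab1, Cd74 and Ciita were not matched. The 250 bases before the start of H2-Aa (chr17:34287824-34288073, minus strand) and of H2-Eb1 (chr17:34305617-34305866, plus strand) are shown 5′ to 3′ because the levels of these 2 genes varied together across the libraries and both promoters hold a Y box. Capitals mark matches to the Y box (TGATTGG) and the X box (AACNGATG), elements that NF-Y and the RFX complex are known to bind, and to the cyclic AMP response element (TGACGTCA), which CREB proteins are known to bind.
H2-Aa: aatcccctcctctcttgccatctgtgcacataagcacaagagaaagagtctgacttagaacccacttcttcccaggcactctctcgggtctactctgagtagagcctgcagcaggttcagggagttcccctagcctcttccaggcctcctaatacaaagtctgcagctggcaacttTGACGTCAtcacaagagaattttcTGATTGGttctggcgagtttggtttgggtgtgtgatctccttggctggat
H2-Eb1: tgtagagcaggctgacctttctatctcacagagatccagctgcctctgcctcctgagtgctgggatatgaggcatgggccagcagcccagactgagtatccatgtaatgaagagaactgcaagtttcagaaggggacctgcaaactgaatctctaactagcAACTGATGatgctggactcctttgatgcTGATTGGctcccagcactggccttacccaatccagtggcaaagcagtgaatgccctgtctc
The Y box began 50 bases before the start of H2-Aa, 61 before H2-Eb1 and 63 before the RefSeq start of H2-DMb1, which lies inside the GENCODE gene. The X box began 89 bases before H2-Eb1 and 92 before H2-DMb1, whereas H2-Aa had the cyclic AMP response element at 74 bases and no match to these X box letters. Both entries of H2-DMa lacked all 3 motifs, but their windows (34122582 to 34122831 and 34125268 to 34125517) lie inside the GENCODE gene. The bases before its GENCODE start were not read. The motifs were searched on both strands and picked after the sequences had been seen. Of 32851 promoter windows of 250 bases, 7.23% held the Y box, 1.98% the X box, 1.55% the cyclic AMP response element and 0.146% both the X and the Y box. A match describes letters and does not show that a factor was bound.

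Class II transcripts were abundant in libraries labelled as CD8 T cells. Levels are given as CPM, each gene's count relative to the library total in the usual unit of RNA sequencing, after TMM scaling of the totals. The 7 members together took from 0.254% of counts in KO core F319 to 2.25% in WT core H876, of totals between 21767045 and 32566456 counts. The defining markers of the labelled cell type were present throughout, with Cd8a between 758 and 1983 CPM and Cd3e between 591 and 1359 CPM. Correlations of log2 CPM ran from 0.897 to 0.939 within groups and from 0.884 to 0.945 between groups. PD-L1 was deleted in endothelium, so the sorted cells offer no check of the deletion.

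Cd74, which encodes the invariant chain and lies outside the MHC (chromosome 18, 60803848 to 60812652), was the most abundant member. Its WT core values were 11439 CPM in H876, 4585 in H873, 4434 in F164, 2072 in the pool and 1657 in H719. In KO core the lowest value was 1197 CPM in F319, the median 2636 and the highest 5598 in F219. H876 held more than any other library, and each of the other 4 WT core libraries lay within the KO core range. In WT rim Cd74 measured 1758 CPM in H874 and 5025 in H877. The KO rim values were 4015 CPM in O, 3323 in F15, 1776 in F322 and 1604 in F86. The KO rim values except that of F86 lay between the 2 WT rim values, so the genotypes overlapped in the rim too.

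The classical chains were high and low in much the same libraries as Cd74. H2-Aa, the alpha chain of the I-A molecule, measured 3017 CPM in H876, 1094 in H873, 1034 in F164, 471 in the pool and 373 in H719 of WT core. In KO core H2-Aa ran from 295 CPM in F319 through a median of 603 to 1297 in F219. All WT core libraries except H876 lay within this range. The WT rim values of H2-Aa were 1368 CPM in H877 and 346 in H874. The KO rim values were 1015 CPM in O, 738 in F15, 347 in F86 and 294 in F322. Again all but 1 of the KO rim libraries (F322) lay between the 2 WT rim libraries.

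H2-Ab1, the beta chain that pairs with H2-Aa, measured 5385 CPM in H876, 2079 in H873, 1824 in F164, 856 in the pool and 703 in H719 of WT core. In KO core it ran from 520 CPM in F319 through a median of 1133 to 2399 in F219. Its rim values were 2255 CPM in H877 and 575 in H874 for WT, and 1738 CPM in O, 1436 in F15, 586 in F86 and 540 in F322 for KO. As for H2-Aa, H876 was the highest library and the genotypes overlapped at both sites. H2-Eb1, the beta chain of the I-E molecule, spanned 200 CPM in KO core F319 to 2061 in WT core H876. H2-Ea, the alpha chain partner of H2-Eb1 and a transcribed pseudogene in RefSeq, had 0 counts in 13 of 17 libraries and reached 0.75 CPM in WT core H876.

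The genes of the peptide exchange factor H2-DM were less abundant. H2-DMa, its alpha chain, measured 480 CPM in H876, 217 in H873, 186 in F164, 124 in the pool and 113 in H719 of WT core, and 88.8 (O) to 260 (F318) in KO core. It measured 125 and 209 CPM in WT rim and 115 to 175 in KO rim. Its 5.40-fold span over the 17 libraries was the narrowest of the 7 members. H2-DMb1, a beta chain of H2-DM, spanned 33.8 CPM in KO rim F322 to 339 in WT core H876. H2-DMb2 is a near-identical copy of H2-DMb1, with 13.4 to 313 CPM, and the sources used here do not say how reads shared by both were counted, so both values are uncertain.

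Ciita, the transactivator of the class (chromosome 16, 10480059 to 10528418), was the least abundant member and the most variable, with a 23.3-fold span. Its WT core values were 153 CPM in H876, 58.4 in F164, 39.3 in H873, 23.0 in the pool and 8.76 in H719. In KO core it ran from 6.58 CPM in F319 through a median of 31.0 to 63.2 in F219. All WT core values except that of H876 lay inside the KO core range. In WT rim Ciita measured 38.5 CPM in H874 and 48.9 in H877. The KO rim values were 43.3 CPM in O, 30.7 in F322, 24.8 in F15 and 7.93 in F86. The WT rim libraries, which differed 3.95-fold in H2-Aa, differed 1.27-fold in Ciita.

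**Figure D1:**
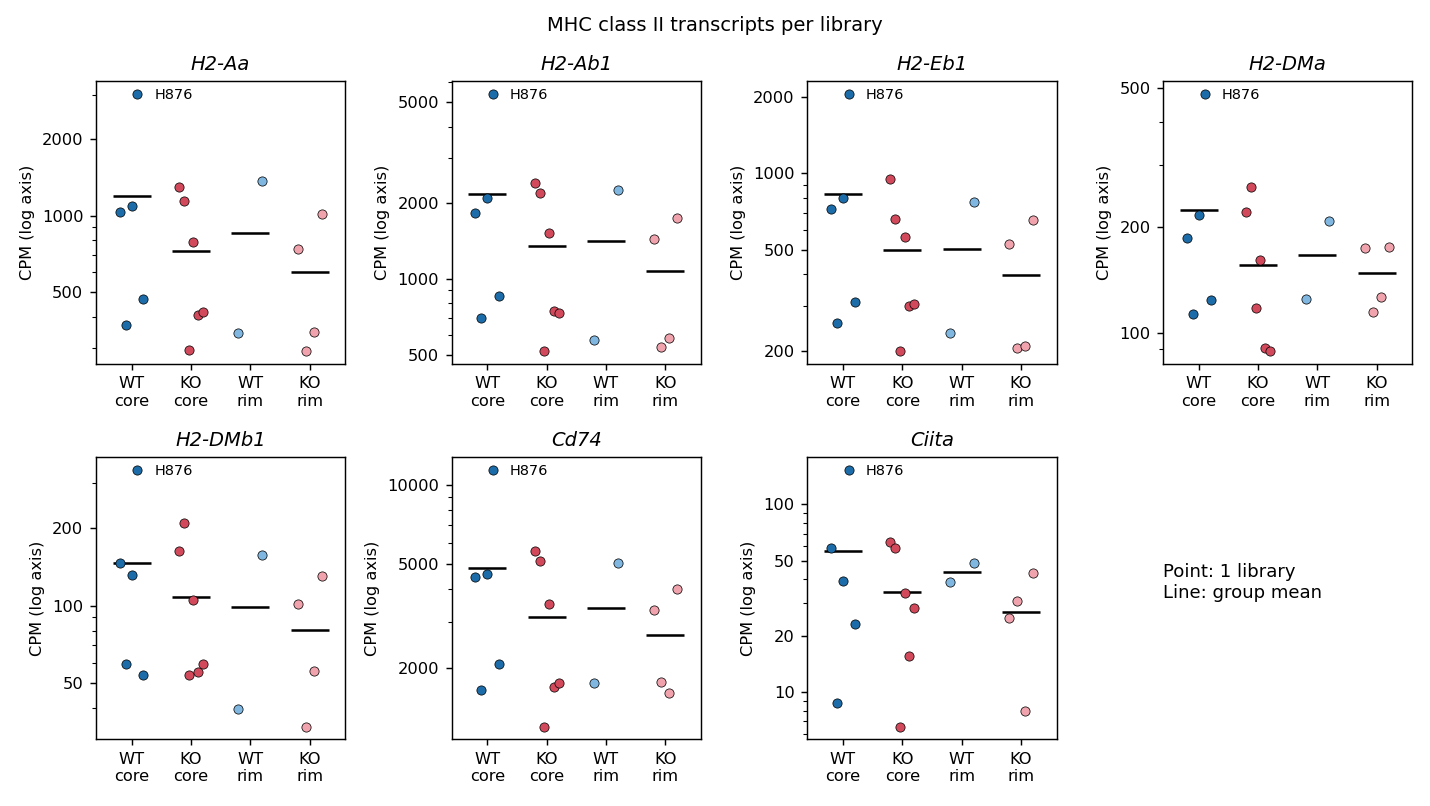
CPM of the 7 class II genes per library (vertical log axes that start at different values), with 1 point per library and a line at each group mean. WT core H876 is the highest library in every panel, and the other WT core libraries lie within the KO core range except for H2-DMb1 in the pool (53.8 CPM), just under the lowest KO core value (53.9 CPM).

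The mean of Cd74 was 4837 ± 3923 CPM in WT core (SD, n = 5), 3392 ± 2310 in WT rim (SD, n = 2), 3147 ± 1892 in KO core (SD, n = 6) and 2680 ± 1179 in KO rim (SD, n = 4). H2-Aa had means of 1198 ± 1067, 857 ± 723, 724 ± 421 and 598 ± 341 CPM in the same order of groups. Ciita had means of 56.5 ± 57.1, 43.7 ± 7.33, 34.3 ± 22.7 and 26.7 ± 14.7 CPM in that order. This order of means held for 6 of the 7 members, whereas H2-DMb1 stood higher in KO core (108 ± 65.8 CPM) than in WT rim (98.8 ± 83.8 CPM). Neighbouring means in the order differed by less than the SD of at least 1 of the 2 groups for all 7 members.

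The genotype comparison asked whether loss of endothelial PD-L1 altered the transcripts of the sorted cells. In core, the fitted log2 fold changes of KO over WT were all negative, from -0.74 for H2-Eb1 to -0.44 for H2-DMb1, but none passed the test. For Cd74 the change was -0.62 (SE 0.510, 95% interval -1.70 to 0.46, edgeR adjusted p = 1), and for Ciita -0.72 (SE 0.635, edgeR adjusted p = 1). edgeR called 0 of 7 members, with a background of 0% of the 20137 genes tested. 0 members had an unadjusted p under 0.05, beside 6.18% of all genes. DESeq2, with a background of 0.0455%, and limma voom also called 0 of 7. The share of all genes that limma voom called is not given, in this or the other comparisons. The median over the members was -0.68 on the log2 scale, beside -0.01 over all genes tested. In these bulk libraries fewer cells of a type and less RNA per cell cannot be told apart. Since the labels do not tie each library to an animal of its own, every p measures the spread between libraries, which may be technical.

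WT core H876 carried most of this difference. Without it, the log2 fold change of KO over WT in core was -0.03 for Cd74, -0.05 for H2-Aa and -0.03 for H2-Ab1. It was -0.09 for H2-Eb1 and -0.05 for H2-DMa, and positive for H2-DMb1 (0.12) and Ciita (0.07). In this comparison the fold changes of all 11 B cell markers, all 15 macrophage and monocyte markers, all 5 tested neutrophil markers and 9 of the 12 dendritic cell markers were negative as well. Their medians on the log2 scale were -1.19, -0.40, -0.97 and -0.20, and 8 of the 10 tested markers of lung epithelium and tumour were positive (median 0.46). edgeR called 0 markers of these lists. The marker sums of H876 were 2275 CPM for dendritic cells, 571 for B cells and 5785 for macrophages and monocytes, the last of which was lower than in WT core F164 (5934), KO core F219 (5801) and KO rim O (9076). What part other cell types had in the difference was not tested.

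In rim, the 7 fold changes of KO over WT were again negative, from -0.71 for Ciita to -0.18 for H2-DMa. For Cd74 the log2 fold change was -0.34 (SE 0.723, 95% interval -1.87 to 1.19, edgeR adjusted p = 0.949). edgeR called 0 of 7 members, with a background of 0% of genes, and 0 members had an unadjusted p under 0.05, beside 7.35% of all genes. DESeq2, with a background of 1.62%, and limma voom also called 0 of 7. The direction rested on single WT rim libraries. Without H877 the Cd74 value was 0.62 and 6 of the 7 members changed sign, Ciita being the exception, whereas without H874 the Cd74 value was -0.91. In the rim all 12 dendritic cell markers (median -1.25) and all 11 B cell markers (median -0.59) had negative fold changes. All 15 macrophage and monocyte markers (median 1.69) and 9 of the 10 tested markers of lung epithelium and tumour (median 2.44) had positive ones. Of the 5 tested neutrophil markers 4 were positive (median 0.43), and edgeR called 0 markers of these lists. Their part in the class II values was not tested.

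**Figure D2:**
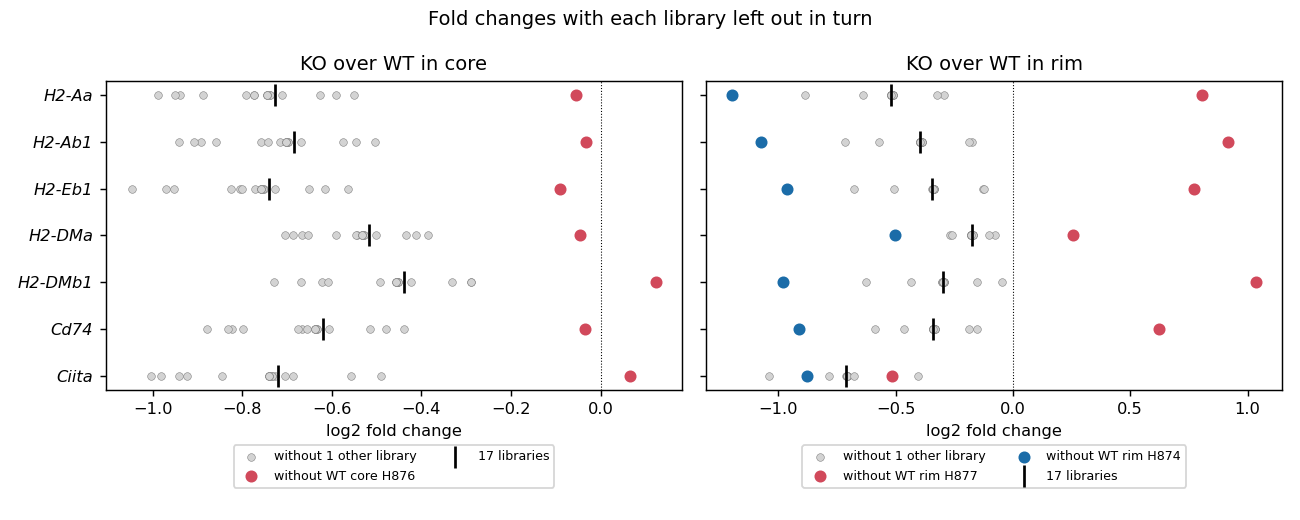
Log2 fold change of KO over WT (horizontal) of each class II gene in core and in rim, with a bar for the fit of all 17 libraries and 1 point for each library left out. The values in core come close to 0 without WT core H876, and those in rim turn positive without WT rim H877 for every gene but Ciita.

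Core was compared with rim to ask whether the transcripts differed between core-enriched and rim-enriched cells. As these came from macroscopic and parenchymal nodules, position and kind of nodule cannot be told apart. In KO libraries the 7 log2 fold changes of core over rim were positive, from 0.08 for H2-DMa to 0.42 for H2-DMb1. For Cd74 the value was 0.23 (SE 0.549, 95% interval -0.93 to 1.39, edgeR adjusted p = 0.976). edgeR called 0 of 7 members, with a background of 0% of genes, and 0 had an unadjusted p under 0.05, beside 7.95% of all genes. DESeq2, with a background of 0.187%, and limma voom called 0 of 7 as well. The sign of Cd74 (-0.01) and of H2-DMa (-0.03) turned when KO core F219 was left out, and that of H2-DMa also without KO core F318 (-0.12) or KO rim F322 (-0.02). In this comparison all 12 dendritic cell markers had positive fold changes (median 1.21) and all 11 B cell markers negative ones (median -1.65). Of the 15 macrophage and monocyte markers 6 were positive (median -0.09), and all 5 tested neutrophil markers were negative (median -0.46). Of the 10 tested markers of lung epithelium and tumour 5 were positive (median 0.26), and edgeR called 0 markers of these lists. Their part in the class II values was not tested.

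Identifiers F322, F86 and O each occur once in KO core and once in KO rim, and the labels do not say that an identifier marks an animal. F322 and O went opposite ways. Cd74 measured 3516 CPM in core and 1776 in rim for F322, 1691 and 1604 for F86, and 1756 and 4015 for O. H2-Ab1 was 2.81-fold higher in core for F322, whereas for O its core level was 0.422 of its rim level. All 7 members were higher in core for F322 and all 7 higher in rim for O. KO rim O was the library with the highest sum of macrophage and monocyte markers. KO rim F322 had the second lowest sum of dendritic cell markers. The macrophage and monocyte sum was 2155 CPM in core and 9076 in rim for O, and 4795 and 1175 for F322. The dendritic cell sum was 396 and 261 CPM for O, and 397 and 96.4 for F322. The B cell sum was 39.3 and 346 CPM for O, and 253 and 614 for F322. What part these cells had in the class II values was not tested.

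In WT libraries the 7 log2 fold changes of core over rim were also positive, from 0.37 for Ciita to 0.72 for H2-Eb1. For Cd74 the value was 0.51 (SE 0.726, 95% interval -1.03 to 2.05, edgeR adjusted p = 0.776). edgeR called 0 of 7 members, with a background of 3.86% of genes, and 0 members had an unadjusted p under 0.05, beside 17.96% of all genes. DESeq2, with a background of 11.8%, and limma voom called 0 of 7 too. The median over the members was 0.51, beside 0.03 over all genes. Without WT core H876 the values of Cd74 (-0.07), H2-Aa (-0.19), H2-Ab1 (-0.04), H2-DMa (-0.04) and Ciita (-0.41) turned negative. Without WT rim H874 those of Cd74 (-0.05), H2-Aa (-0.19), H2-Ab1 (-0.05) and H2-DMb1 (-0.11) did. Beside these values, all 15 macrophage and monocyte markers had positive fold changes and 2 of them, the complement genes C1qb (3.45) and C1qc (3.45), were called by edgeR (adjusted p = 0.0328 and 0.0335). The median of that list was 2.27, and 9 of the 10 tested markers of lung epithelium and tumour were positive as well (median 1.67). So were all 5 tested neutrophil markers (median 1.14), with 0 of them called by edgeR. All 11 B cell markers had negative fold changes (median -0.94) and the 12 dendritic cell markers were split evenly, with 6 positive (median 0.03), and edgeR called 0 markers of the epithelial, B cell and dendritic cell lists. Their part in the class II values was not tested.

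The genotype effect was also compared between the sites. Its difference, core minus rim, lay between -0.40 for H2-Eb1 and -0.01 for Ciita on the log2 scale. For Cd74 it was -0.28 (SE 0.897, 95% interval -2.18 to 1.62, edgeR adjusted p = 1). edgeR called 0 of 7 members, with a background of 0% of genes, and 0 members had an unadjusted p under 0.05, beside 7.68% of all genes. DESeq2, with a background of 0.913%, and limma voom called 0 of 7. All 12 dendritic cell markers had a positive difference (median 0.85), whereas all 15 macrophage and monocyte markers (median -2.50) and 9 of the 11 B cell markers (median -0.66) had a negative one. All 5 tested neutrophil markers (median -1.60) and 9 of the 10 tested markers of lung epithelium and tumour (median -1.25) were negative as well. edgeR called 0 markers of these lists, and their part was not tested. The intervals left room for large changes in either direction, so these libraries do not show that the genotypes or sites are alike in class II transcripts.

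**Figure D3:**
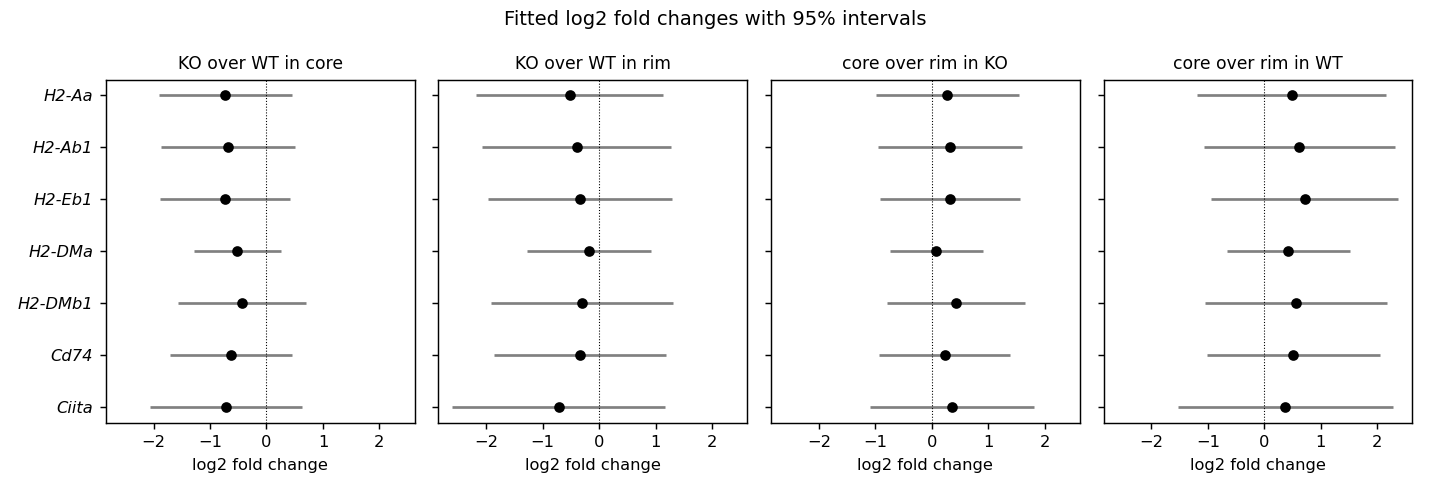
Log2 fold change of each class II gene with its 95% interval, derived from the F statistic of edgeR, in the 4 comparisons of 2 groups. Every interval spans 0, and the intervals are widest where the 2 WT rim libraries enter.

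The levels of the members varied together from library to library. Over the 17 libraries, Pearson's r of log2 CPM was 0.997 between H2-Aa and H2-Ab1 (Spearman's rho 0.993), and 0.995 without H876 and F319, the 2 libraries farthest from the median of the mean log2 CPM of H2-Aa, H2-Ab1, H2-Eb1 and Cd74. Cd74 and H2-Aa had r = 0.989 and rho = 0.917, and r = 0.984 without those 2 libraries. H2-DMa was looser, with r = 0.926 and rho = 0.846 against H2-Aa, and 0.896 without the 2. Ciita had the lowest Pearson's r of the members with each of the others, from 0.732 with H2-DMb1 to 0.873 with Cd74, and its rho with Cd74 was 0.931, above those of H2-DMa (0.887) and H2-DMb1 (0.838) with Cd74. Against H2-Eb1 it had r = 0.836 and rho = 0.846, and r = 0.735 without the 2 libraries. These correlations are descriptions, because both genes of a pair were read from the same libraries and 6 of the libraries share 3 identifiers.

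Per kilobase of exon in GENCODE M21, the median level was 1979 CPM for Cd74, 559 for H2-Ab1, 271 for H2-Eb1, 194 for H2-Aa, 60.3 for H2-DMb1, 46.8 for H2-DMa and 3.56 for Ciita. Exon length was the union of all annotated exons of a gene (3798 bases for H2-Aa, 1944 for H2-Eb1). It may exceed the length of the transcript present, so values per kilobase do not give transcript numbers of 1 gene against another. The ratio of H2-Ab1 to H2-Aa per kilobase stayed between 2.44 in WT rim H877 and 2.88 in KO rim F15, a 1.18-fold span. The ratio of Cd74 to H2-Aa ran from 8.31 in WT rim H877 to 13.7 in KO rim F322. The pair of I-A chains thus kept a nearly fixed ratio while their levels differed 10.3-fold and 10.4-fold between libraries. Ciita per H2-Aa spanned 4.98-fold, from 0.890% in KO core F319 to 4.43% in WT rim H874. The next highest ratio of Ciita was 4.16% in KO rim F322, and both libraries stood above the others, of which the highest was KO core O with 2.69%. WT rim H874 and KO rim F322 had the highest summed B cell markers (696 and 614 CPM) and the lowest summed dendritic cell markers (80.0 and 96.4 CPM). KO core O, however, had the lowest B cell sum (39.3 CPM). WT rim H877 and KO rim F15, with B cell sums of 490 and 489 CPM, had ratios of 1.42% and 1.34%. Over the 17 libraries the ratio of Ciita had r = 0.464 (log scale) and rho = 0.441 with the B cell sum. What part these cells had in the ratio was not tested.

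**Figure D4:**
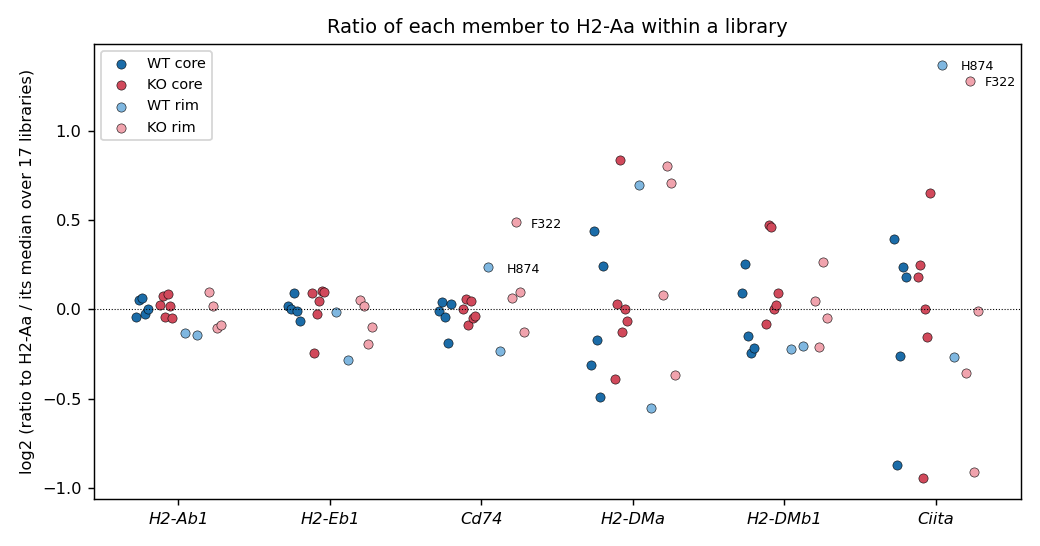
Ratio of each class II gene to H2-Aa per kilobase of exon, as log2 of the ratio over its median, with 1 point per library. H2-Ab1 and H2-Eb1 stay within 1.18-fold and 1.30-fold spans, whereas Ciita spans 4.98-fold, with WT rim H874 and KO rim F322 on top.

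Markers of antigen-presenting cells were found in every library. The 12 dendritic cell markers summed to 182 to 2275 CPM in WT core, 175 to 2342 in KO core, 80.0 to 1722 in WT rim and 96.4 to 841 in KO rim. Their sum on the log2 scale correlated with the mean log2 CPM of H2-Aa, H2-Ab1, H2-Eb1 and Cd74 with r = 0.741 and rho = 0.770 (n = 17), and r = 0.651 without the 2 farthest libraries. Siglech, a marker of plasmacytoid dendritic cells and the most abundant of the list, measured 1433 CPM in KO core F318, 1174 in WT core H876 and 849 in WT rim H877, but 0.746 in KO rim O. KO rim O was nevertheless among the higher libraries for class II, with 1015 CPM of H2-Aa. Clec9a was at 0 in 2 libraries, and no other marker of this list was at 0 in any.

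The 15 macrophage and monocyte markers summed to 1947 to 5934 CPM in WT core, 1858 to 5801 in KO core, 1201 to 2081 in WT rim and 659 to 9076 in KO rim. Their correlation with the same class II mean was r = 0.686 and rho = 0.569, and r = 0.730 without the 2 farthest libraries. Lyz2 (321 to 5145 CPM) and Apoe (117 to 1049 CPM) were the most abundant. Marco was at 0 in 5 libraries, and Chil3 and Siglecf were at 0 in 1. The 11 B cell markers summed to 149 to 571 CPM in WT core, 39.3 to 276 in KO core, 490 to 696 in WT rim and 115 to 614 in KO rim, with r = 0.445 and rho = 0.277 against class II, and r = 0.244 without the 2. Within the 11 core libraries the B cell value was r = 0.786, against 0.876 for dendritic cells and 0.705 for macrophages and monocytes. Cd79a (5.06 to 120 CPM), a part of the B cell receptor, was the most abundant of them and was highest in WT rim H874. Ciita alone had r = 0.615 with the B cell sum, but this was not particular to B cells. Its r was 0.563 with the sum for lung epithelium and tumour, 0.533 for endothelium and 0.508 for macrophages and monocytes. It was lower for natural killer cells (0.334), and negative for CD4 and regulatory T cells (-0.434) and for fibroblasts and mural cells (-0.411). With the CD8 T cell sum it was -0.672, larger in size than the B cell value. The B cell markers Ebf1 and Cr2 were at 0 in 1 library each.

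The 7 CD8 T cell markers summed to 3615 CPM in H876, the library highest in class II, and to 7637 CPM in H719, and correlated with the class II mean with r = -0.674 and rho = -0.480. Markers of lung epithelium and tumour summed to 82.3 to 958 CPM, with r = 0.738 and rho = 0.816, the highest rho of the 10 marker lists. Cdh1 (17.2 to 362 CPM) and Napsa (42.4 to 415 CPM) were the most abundant, and neither was at 0 in any library. Their medians were 129 and 73.5 CPM, beside 299 CPM for the sum, so these 2 genes made up much of it. The medians of Sftpc and Sftpa1 were 3.21 and 1.17 CPM. Which cells the RNA of Cdh1 and Napsa came from was not tested. Members of this list peaked in different libraries: Napsa in WT core H876, Cdh1 in KO core F318, Sftpa1 in KO core F219 and Sftpc in KO rim O. Sftpa1 was at 0 in H876. Nkx2-1 was at 0 in 13 libraries, Sftpd in 9, Sftpb in 5, Sftpa1 in 2, and Sftpc and Lamp3 in 1 each. The other lists gave r = 0.631 for neutrophils, 0.531 for natural killer cells, 0.235 for endothelium, -0.178 for fibroblasts and mural cells, and -0.162 for CD4 and regulatory T cells. How much of the class II RNA came from CD8 T cells was not tested.

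**Figure D5:**
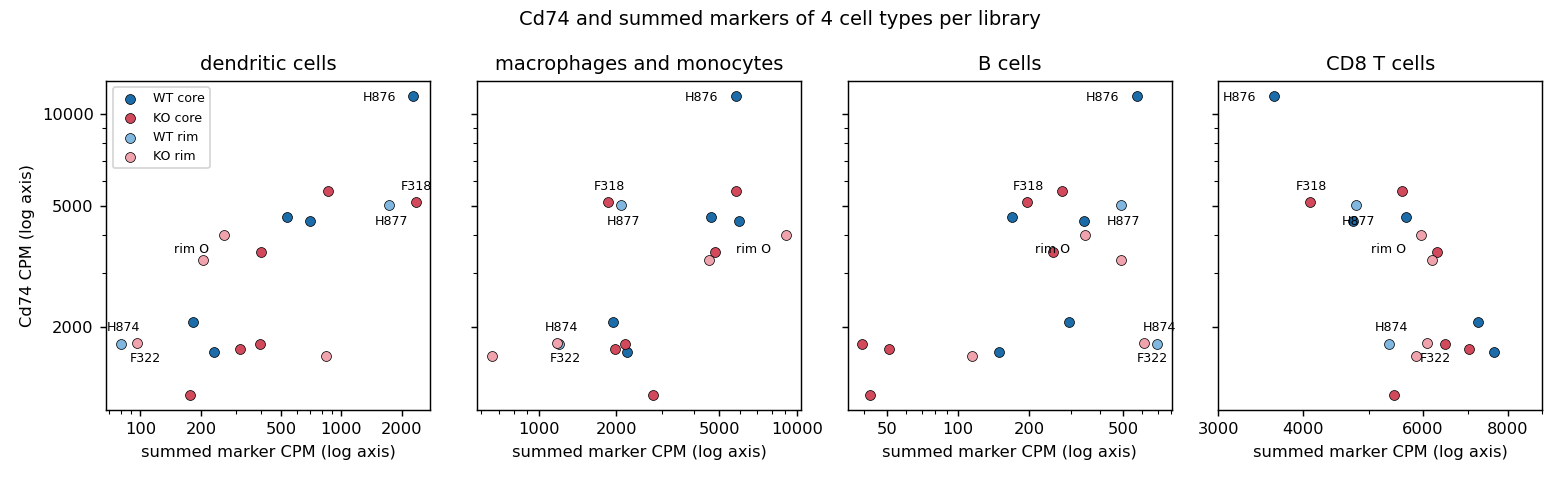
Cd74 CPM (vertical) against the summed CPM of markers of dendritic cells, macrophages and monocytes, B cells, and CD8 T cells (horizontal), all on log axes with 1 point per library. WT core H876 is highest in Cd74 and lowest in the CD8 T cell sum, and WT rim H874 and KO rim F322 combine the lowest dendritic cell sums with the highest B cell sums.

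Class I genes showed how much smaller the spread of another presentation pathway was in these libraries. Over the 17 libraries the class I heavy chain H2-K1 spanned 1.4-fold (3034 to 4241 CPM), H2-D1 1.59-fold and the light chain B2m 1.4-fold, against 9.56-fold for Cd74 and 10.3-fold for H2-Aa. Of the other class II genes, H2-Oa and H2-Ob, the chains of H2-DO, which is known to restrain H2-DM in B cells, measured 7.83 to 48.9 CPM and 23.8 to 205 CPM. H2-Ob was highest in WT rim H874 (205 CPM), followed by KO rim F322 (137 CPM), the same 2 libraries that led in B cell markers. H2-Oa was highest in WT core H876. H2-Eb2 measured 0 to 31.8 CPM.

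The wider pathway lists held 52 genes, of which 47 were in the table. edgeR called none of them in the genotype comparisons, in core against rim of KO or in the difference of genotype effects, where the background was 0% of genes. In core against rim of WT, 7 of them passed, of a background of 2.1% of genes higher and 1.76% lower in core. The class II transcription factor list had 1 of 12 called, lower in core: Irf1, an interferon-induced factor known to act on Ciita, at -1.02 on the log2 scale (SE 0.258, edgeR adjusted p = 0.0371). Irf1 measured 389 ± 116 CPM in WT core (SD, n = 5) and 643 and 934 CPM in the 2 WT rim libraries. The factors that bind class II promoters, Rfx5, Rfxap, Rfxank, Nfya, Nfyb, Nfyc and Creb1, were not called.

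The interferon gamma list had 3 of 6 called, all lower in WT core. They were the receptor chains Ifngr1 (-0.85, SE 0.180, edgeR adjusted p = 0.0182) and Ifngr2 (-2.08, SE 0.468, edgeR adjusted p = 0.0234), and the receptor kinase Jak1 (-0.92, SE 0.209, edgeR adjusted p = 0.0239). Ifngr2 measured 39.2 ± 6.15 CPM in WT core (SD, n = 5), 53.2 in H877 and 277 in H874. The class I list had 2 of 10 called, both immunoproteasome subunits and higher in core: Psmb8 (0.52, edgeR adjusted p = 0.0434) and Psmb9 (0.56, edgeR adjusted p = 0.0362). Of the 2 T cell receptors for class II, Lag3 was called higher in core (2.72, SE 0.522, edgeR adjusted p = 0.0113), with 115 ± 55.3 CPM in WT core (SD, n = 5) against 8.79 and 26.2 CPM in WT rim, and Cd4 was not called. The list of invariant chain processing, peptide supply and turnover had 0 of 12 called, with a median of 0.73 beside 0.03 over all genes. Its most abundant genes were the endosomal proteases cathepsin D (Ctsd, 1052 to 2653 CPM), cathepsin B (Ctsb, 560 to 2885 CPM) and cathepsin S (Ctss, 316 to 1571 CPM), the last of which is known to cut the invariant chain. All 3 were lowest in WT rim H874.

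All 7 of these calls were lost without WT rim H874, which left 1 WT rim library assumed to vary like the other groups. The adjusted p of edgeR was then 0.431 for Irf1, 0.134 for Ifngr1, 0.783 for Ifngr2, 0.153 for Jak1, 0.437 for Psmb8, 0.401 for Psmb9 and 0.153 for Lag3. Without H874 the log2 fold changes were -0.88 for Ifngr1 and -0.94 for Jak1, as large as with it, 2.13 for Lag3, -0.73 for Irf1, 0.38 for Psmb8 and 0.44 for Psmb9, whereas that of Ifngr2 was -0.45. Other single libraries ended calls as well: WT rim H877 for Ifngr1 (0.0763), Jak1 (0.0823) and Psmb9 (0.0544), WT core H873 for Ifngr2 (0.0554) and Jak1 (0.0558), and WT core H719 for Psmb9 (0.0546). For Irf1 and Psmb8, 8 and 11 of the 17 libraries did so. Lag3 lost its call in edgeR with no library other than H874.

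The genes with the pattern most like that of H2-Aa, H2-Ab1, H2-Eb1 and Cd74 were ranked by Pearson's r with their mean log2 CPM over the 17 libraries, among the 9771 genes whose mean reached 5 CPM. The median r of all candidates was -0.03, and 26 of them (0.266%) reached 0.9. Plbd1, a phospholipase B-like lysosomal gene, came first with r = 0.977 (0.969 to 0.982 when 1 library was left out). Cd83, a surface protein of mature dendritic cells that is known to stabilize class II, had r = 0.955. Others among the first 10 were Atp6v0c (0.940), Fth1 (0.932), Rogdi (0.931), Cst3 (0.929), Ifi30 (0.928), Irf5 (0.922) and Hexa (0.921). Cst3 encodes cystatin C, an inhibitor of cysteine proteases, and Ifi30 encodes GILT, a thiol reductase that unfolds proteins for class II presentation. Ifi30 and Cd83 were also on the pathway list. Of the first 10 genes, 3 were among the first 10 by Spearman's rho and 5 among the first 10 in the 11 core libraries alone.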

How the data were processed

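RNA was sequenced from sorted CD8 T cells in 17 libraries. The values are unnormalized counts of reads for each symbol, as deposited by the authors in 1 table. The submitters' processing notes list featureCounts, Subread 2.0.0, HISAT2, Bowtie2 2.4.5 and cutadapt 3.2, with GRCm38 and mm10 as builds. Neither strandedness nor the gene annotation behind the counts was named in those sources. Libraries were grouped by the labels' genotype and site.

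Genes were kept by filterByExpr (20137 of 27240, with 7 of 7 members), scaled by TMM and fitted in 1 quasi-likelihood model of 4 groups with edgeR 4.0.16 in R 4.3.3. The two-sided tests were adjusted by Benjamini-Hochberg over all tested genes, with calls at an adjusted p under 0.05. The log2 CPM used a prior count of 2. DESeq2 1.42.0, limma voom (limma 3.58.1), other scaling, no filter, fewer groups, female libraries only, leaving out each library, and a block on identifiers were the alternatives. Scripts were tested on simulated data.

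By rule, the text names the members, each called gene of the pathway lists or else the 3 of a list with the highest mean CPM, the 10 genes with the most similar pattern, and markers that are the 2 most abundant of a list or at 0 in some library. Some genes that this rule takes are not reported here. Outside this rule, the class I heavy and light chain genes, H2-Ea, H2-Eb2, Cd4, the factors bound at class II promoters, Cd3e, C1qb and C1qc were chosen after their values were seen. The members and lists were chosen with earlier results of these data known. Depth was between 21767045 and 32566456 counts, so the upper limit that 0 counts allow (3 counts) was 0.0919 to 0.141 CPM per library, for counting error only.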

Additional observations from a re-analysis of the deposited data

Results flagged for a closer look

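WT core H876 passed a limit for distance from the other 4 WT core libraries in 2 members. H2-Aa measured 3017 CPM there, with a gap to the next library of 0.727 of the range of the group. H2-DMa measured 480 CPM there, with a gap of 0.716 of the range. The limit at the 95% level is 0.71 for 5 libraries. Of 21 sets tested (7 members in each of the groups with at least 4 libraries), these 2 passed their limit, and chance flags about 1 in 20 sets. Since the members varied together from library to library, the 21 sets were not independent, and this rate does not give the chance of joint flags. The other 5 members were also highest in H876, with gaps below the limit. Passing the limit or not does not show that the 2 members differ from these 5.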

How the results depend on the processing

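None of the 7 members was called in any of the 5 comparisons under any alternative that was run. The background over all genes is given for the main edgeR fit and DESeq2 only. The lowest adjusted p of a member was 0.736 for KO over WT in core, 0.761 for KO over WT in rim, 0.735 for core over rim in KO, 0.444 for core over rim in WT and 0.755 for the difference of genotype effects. Fits on only the groups compared cannot give the difference of effects and were not run for it. The direction was less stable: of the alternative values, 2 of 168, 6 of 168, 8 of 175, 11 of 168 and 27 of 161 changed sign, in that order of comparisons. Where a cause is not named, the cause was not tested. With 2 WT rim libraries, leaving out either leaves 1 that is assumed to vary like the other groups. TMM factors ran from 0.959 to 1.07, which is the ratio of CPM from raw totals to TMM-scaled CPM.

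Leaving out 1 library at a time gave these ranges of log2 fold change for members whose sign turned. KO over WT in core ran from -0.73 to 0.12 for H2-DMb1 and from -1.004 to 0.065 for Ciita. KO over WT in rim ran from -1.20 to 0.80 for H2-Aa, -1.07 to 0.92 for H2-Ab1, -0.96 to 0.77 for H2-Eb1, -0.50 to 0.25 for H2-DMa, -0.98 to 1.04 for H2-DMb1 and -0.91 to 0.62 for Cd74. Core over rim in KO ran from -0.12 to 0.21 for H2-DMa and from -0.0080 to 0.48 for Cd74. Core over rim in WT ran from -0.19 to 1.81 for H2-Aa, -0.053 to 1.94 for H2-Ab1, -0.045 to 0.86 for H2-DMa, -0.11 to 1.91 for H2-DMb1, -0.074 to 1.48 for Cd74 and -0.41 to 0.63 for Ciita. The difference of genotype effects ran from -1.54 to 0.47 for H2-Aa, -1.62 to 0.37 for H2-Ab1, -1.53 to 0.25 for H2-Eb1, -0.78 to 0.13 for H2-DMa, -1.49 to 0.53 for H2-DMb1, -1.26 to 0.31 for Cd74 and -0.34 to 0.78 for Ciita.

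Other settings turned the sign of 3 members. H2-DMa in core over rim of KO was -0.016 by limma voom, and Ciita in core over rim of WT was -0.18 by limma voom with or without the replicate block. The difference of genotype effects of Ciita was 0.011 with no filter on low counts, 0.44 by limma voom, 0.44 with the replicate block in limma voom and 0.57 in female libraries only. With the replicate block, H2-DMa in core over rim of KO was -0.028 by limma voom and -0.34 by edgeR within the 3 shared identifiers, where Cd74 was -0.051. The block changed no call of a member. The deviations of same-identifier libraries from their group means correlated with r = 0.0721 for F322, 0.0449 for F86 and 0.0818 for O. Each of these core libraries correlated best with the rim library of its own identifier, and sex by counts agreed within each identifier. The main fit did not treat identifiers as pairs because the labels do not say that they mark animals. Libraries of 1 identifier may therefore not be independent in that fit. Of the 7 called pathway genes, fits of only the 2 groups compared called neither Irf1 (adjusted p = 0.157), Ifngr2 (0.108), Jak1 (0.134), Psmb8 (0.158), Psmb9 (0.133) nor Lag3 (0.11), and female libraries alone called neither Irf1 (0.11), Ifngr2 (0.0855), Psmb8 (0.0936), Psmb9 (0.117) nor Lag3 (0.0504). limma voom did not call Ifngr2 (0.0885, or 0.0881 with the replicate block) or Psmb9 (0.0510, or 0.0515 with the replicate block), and with no filter on low counts neither Psmb8 (0.0622) nor Psmb9 (0.0529) was called.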
